A study of Mus musculus with 2 samples.

Results

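The 7 genes described here encode the chains of the receptors for interleukin-2 and its relatives. Il2ra, Il2rb and Il2rg encode the alpha, beta and common gamma chains, and Il7r, Il4ra, Il21r and Il15ra encode the chains that give the receptors for IL-7, IL-4, IL-21 and IL-15 their ligand. They were picked by name, and all 7 were found among the 32285 genes counted. They were followed in single cells from tumours, enriched on magnetic columns and then sorted by fluorescence as regulatory T cells (Tregs), and counted by their 3' ends on the 10x Genomics platform. Tregs are the T cells, mostly CD4, whose identity rests on the factor Foxp3 and which hold immune responses back.

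The 2 groups were C57BL/6 mice aged 8 to 12 weeks, of genotype JMJD1CTregcKO (cKO, a knockout of Jmjd1c restricted to Tregs by its label) and of genotype JMJD1CWT (WT). Jmjd1c encodes a protein of the JmjC histone demethylase family. Each group had 1 library, so no difference has a replicate check or a p-value. All intervals are 95% intervals that cover counting error only. The kind of tumour, how many mice were pooled, what drives the deletion and which exons it removes are not stated in the sources at hand.

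The alpha chain raises the affinity of the receptor for IL-2, while the beta and gamma chains carry the signal. The gamma chain is shared by the receptors for IL-4, IL-7, IL-9, IL-15 and IL-21. These receptors signal through the kinases JAK1 and JAK3 and through STAT factors. Tregs are known for constant high surface levels of the alpha chain and low levels of the IL-7 receptor chain, and they depend on IL-2 that other cells make. IL-7 receptor chains also pair with the product of Crlf2 to bind the cytokine TSLP.

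The cKO library held 4105 barcodes and the WT library 3905, of which 4026 and 3842 were kept, with medians of 6884 and 8946 UMIs (unique molecular identifiers, each counting 1 captured transcript). The libraries shared 2 barcodes. Cells were put into classes by UMIs of marker genes: 2829 cKO and 3220 WT cells were Tregs (70.3% and 83.8% of kept cells), 403 and 213 were CD8 T cells, 317 and 103 were myeloid cells, and 34 and 1 were natural killer (NK) cells. A further 443 cKO and 305 WT barcodes were in no class, among them 6 cKO barcodes that met more than 1 rule. In the Treg class all 7 Treg markers and all 6 T cell markers were detected at 10 CPM or more in both libraries, where CPM are UMIs per 1000000 UMIs of a class in a library. The class rule itself set a minimum for the summed UMIs of Foxp3, Ikzf2 and Ctla4, so Foxp3 alone was not required. It also required a UMI of Cd3e or Cd3g and capped Lyz2 and C1qa, and the Treg marker list includes Il2ra. These marker levels thus describe the class and do not check it independently. The summed level was 9810 CPM in cKO and 7524 CPM in WT for the Treg markers, and 53.3 and 18.3 CPM for 9 myeloid markers. Foxp3 stood at 58.8 CPM in cKO and 37.0 CPM in WT Tregs. Jmjd1c itself stood at 74.2 CPM in cKO and 88.6 CPM in WT Tregs (log2 ratio -0.24). Counts of 3' ends need not see a deletion whose exons are unknown, so this value checks nothing. Xist was detected in 0.273% of cKO and 97.1% of WT cells, and Y-linked transcripts in 74.6% of cKO cells and in 0 of 3842 WT cells, which allows a share of up to 0.0781%. The libraries thus differed in sex-linked transcripts as well as in genotype, and the 2 cannot be told apart.

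In Tregs, 3 of the receptor genes departed from WT and 4 differed little. Il2ra and Il2rg were both about 1.3 times as high in cKO, Il7r was at 61.8% of its WT level, and Il4ra was slightly higher. Il2rb, Il21r and Il15ra had intervals that spanned equality. A log2 ratio is given as log2((CPM cKO + 5)/(CPM WT + 5)). A gene is said to be past 1.5-fold when that ratio is beyond 1.5-fold in either direction. Of the 7 genes, 0 were past 1.5-fold higher, where 4.26% of the 8679 genes averaging 5 CPM or more were, and 1 was past 1.5-fold lower, where 4.1% of those genes were. The median log2 ratio was 0.08 over the 7 genes and -0.02 over the 8679.

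Il2ra, the alpha chain gene, had 585 CPM in cKO Tregs (13721 UMIs, interval 575 to 594) and 453 CPM in WT Tregs (17190 UMIs, interval 446 to 460). The ratio was 1.29 (interval 1.26 to 1.32, log2 ratio 0.36), and 89.4% of the genes had a lower log2 ratio. When clusters of Tregs were weighted alike in both libraries, the log2 ratio of Il2ra turned to -0.16. Il2rb, the beta chain gene, had 523 CPM in cKO and 520 CPM in WT Tregs. The cKO level was 100.5% of the WT level, with a counting interval of 98.2% to 102.8%. Il2rg, the common gamma chain gene, had 423 CPM in cKO and 328 CPM in WT Tregs. Its ratio was 1.29 (interval 1.26 to 1.32, log2 ratio 0.36), close to that of Il2ra. Unlike that of Il2ra, it was above 1 outside Tregs too. There it was 1.15 in CD8 T cells (interval 1.07 to 1.24) and 1.23 in myeloid cells (interval 1.09 to 1.40). Il2rg lies on chromosome X, and the libraries differ in sex-linked transcripts. Over 249 X-linked genes other than Xist and Tsix the median log2 ratio was -0.09, and 15 of them (6.02%) were at or above that of Il2rg.

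Il7r, the IL-7 receptor chain gene, went the other way. It had 183 CPM in cKO Tregs (4289 UMIs, interval 177 to 188) and 296 CPM in WT Tregs (11214 UMIs, interval 290 to 301). The ratio was 0.618 (interval 0.597 to 0.641, log2 ratio -0.68), and 2.87% of the genes had a lower one. Il4ra, whose product binds IL-4 and, with another chain, IL-13, had 103 CPM in cKO and 91.0 CPM in WT Tregs (ratio 1.13, interval 1.07 to 1.19). Il21r, which binds IL-21, had 182 and 181 CPM in cKO and WT Tregs (ratio 1.01, interval 0.971 to 1.05). Il15ra, which binds IL-15 and presents it to cells that carry the beta and gamma chains, was low in both, with 18.0 CPM in cKO and 16.8 CPM in WT Tregs (423 and 638 UMIs, ratio 1.07, interval 0.946 to 1.21).

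**Figure D1:**
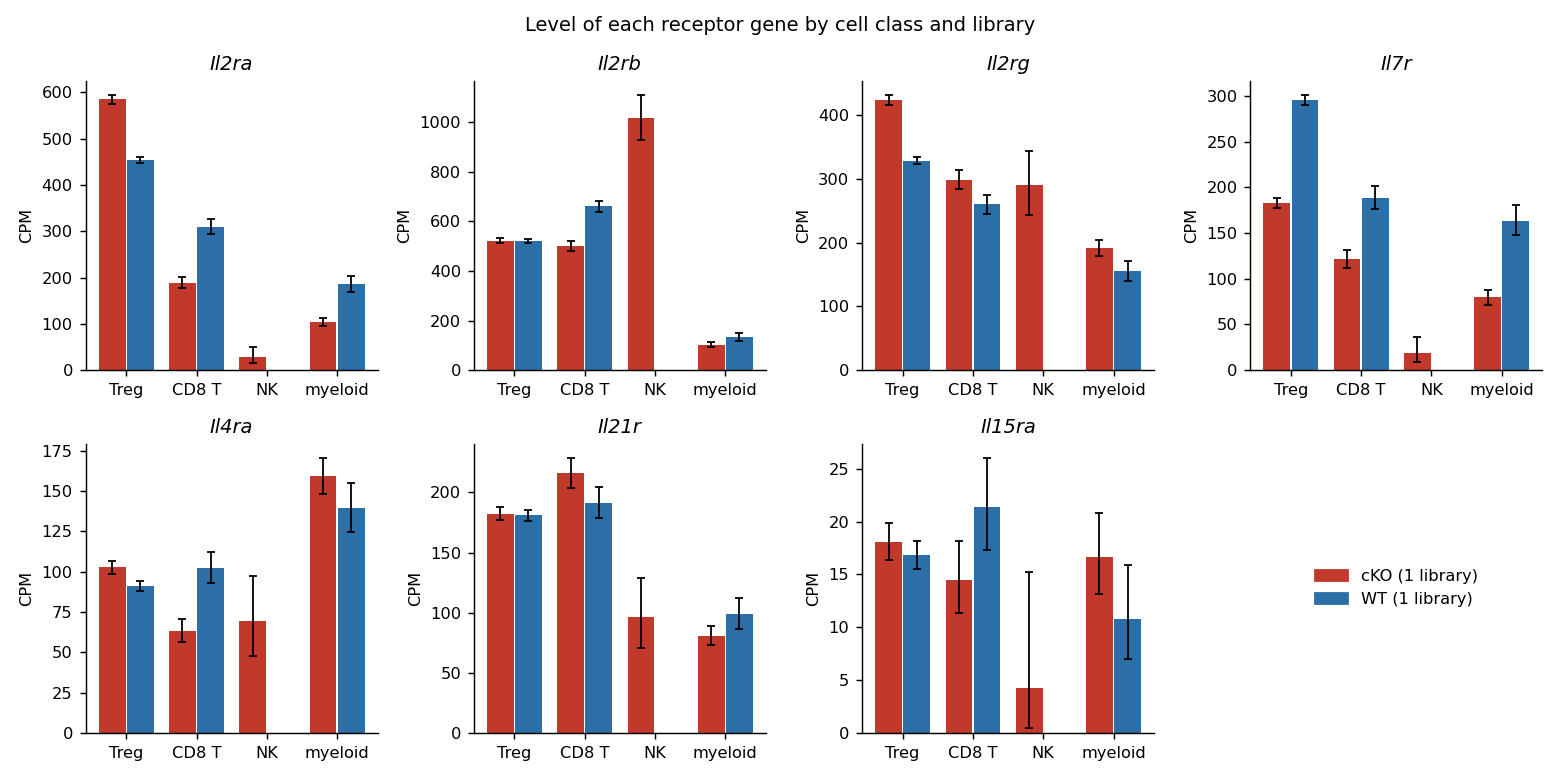
Level of each receptor gene in CPM (vertical axis, linear) by cell class (horizontal axis), with cKO in red on the left and WT in blue on the right of each pair. Bars are 1 library each and whiskers are exact Poisson 95% intervals; the WT NK class held 1 cell and is not drawn. Il2ra and Il2rg stand higher in cKO than in WT Tregs (585 and 453 CPM, 423 and 328 CPM), and Il7r lower (183 and 296 CPM).

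Il2ra lies on chromosome 2 (chr2:11642807-11693193, plus strand, build mm10), with Il15ra 12096 bp downstream (chr2:11705290-11734317) and no annotated gene between them. Il4ra (chr7:125552120-125579474) and Il21r (chr7:125603429-125633570) are likewise neighbours, 23954 bp apart on the plus strand of chromosome 7. The neighbours did not share a ratio: Il2ra stood at 1.29 and Il15ra at 1.07, and Il4ra at 1.13 and Il21r at 1.01. Il2rb (chr15:78479256-78495271) and Il7r (chr15:9505788-9530176) are far apart on the minus strand of chromosome 15. Il2rg (chrX:101264378-101268255, minus strand) is overlapped on its own strand by the annotated gene Gm20489, so its count is uncertain to the extent that reads were assigned to either. Il2ra is likewise overlapped on its own strand by Gm37881, and its count carries the same limit. Il4ra is overlapped only on the opposite strand, by Gm44876, and whether this affects its count was not tested.

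The promoters of the 3 genes whose Treg levels departed most from WT are printed to show what precedes a pair that stood higher in cKO (Il2ra, Il2rg) and a gene that stood lower (Il7r). Each holds the 250 bases before and the 50 after the transcription start given by RefSeq on GRCm38.p6, 5' to 3' on the gene's strand. The Il7r window lies wholly within the Il7r gene by the coordinates given above (chr15:9505788-9530176). The 5' end of that annotation is upstream of the RefSeq start. Capitals mark matches to motifs searched on both strands: STAT (TTCNNNGAA), forkhead (TGTTTAC), ETS (CCGGAAG), AP-1 (TGANTCA) and RUNX (TGTGGT). No marked matches overlap in these 3 windows.
Il2ra (chr2:11642542-11642841, plus strand): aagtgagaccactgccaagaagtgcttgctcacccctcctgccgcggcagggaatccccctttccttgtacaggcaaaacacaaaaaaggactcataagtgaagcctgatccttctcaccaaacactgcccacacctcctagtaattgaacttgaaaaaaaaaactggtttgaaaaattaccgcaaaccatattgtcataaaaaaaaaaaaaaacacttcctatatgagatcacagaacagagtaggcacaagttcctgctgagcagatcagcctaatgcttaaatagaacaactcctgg
Il2rg (chrX:101268206-101268505, minus strand): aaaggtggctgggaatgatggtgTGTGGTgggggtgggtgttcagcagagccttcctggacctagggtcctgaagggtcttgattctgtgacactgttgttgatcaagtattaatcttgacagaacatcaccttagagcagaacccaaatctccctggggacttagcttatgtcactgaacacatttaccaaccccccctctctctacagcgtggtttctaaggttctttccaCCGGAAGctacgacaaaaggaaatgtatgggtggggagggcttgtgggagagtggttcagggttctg
Il7r (chr15:9529827-9530126, minus strand): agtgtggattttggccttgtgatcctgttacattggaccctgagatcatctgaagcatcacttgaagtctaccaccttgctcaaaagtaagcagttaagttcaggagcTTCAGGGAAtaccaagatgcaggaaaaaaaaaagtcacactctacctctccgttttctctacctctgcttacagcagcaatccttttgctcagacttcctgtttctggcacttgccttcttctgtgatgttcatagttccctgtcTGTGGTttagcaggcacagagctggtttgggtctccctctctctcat

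The Il2ra window held 0 matches to the 5 motifs. The Il2rg window held 1 ETS match, 17 bases before the start, and 1 RUNX match. The Il7r window held 1 STAT match, 142 bases before the RefSeq start, and 1 RUNX match 3 bases after it. Both lie within the Il7r gene by the coordinates given above. Over all 32851 promoter windows of the same length, 8.30% held the STAT motif, 8.86% the ETS motif, 16.8% the RUNX motif, 7.81% the AP-1 motif and 3.65% the forkhead motif. A match is a run of letters and not evidence of binding, and these libraries carry no measurement of binding. RefSeq windows were at hand for 6 of the 7 genes; Il2rb is named only.

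The same genes were counted cell by cell after every cell was thinned to 4000 UMIs, which 2498 cKO and 3126 WT Tregs reached (331 and 94 Tregs were shallower). Il7r was detected in 39.6% of cKO Tregs (interval 37.7% to 41.5%) and in 58.5% of WT Tregs (interval 56.8% to 60.2%); without thinning the shares were 51.3% and 75.7%. In the myeloid class, which held some T cell RNA, the thinned shares were 18.6% in cKO and 27.5% in WT. Median depths before thinning were 6941 UMIs in cKO and 8732 in WT Tregs, and 13901 and 20642 in the myeloid cells. Il2rg was detected in 80.4% of cKO and 73.0% of WT Tregs, against 47.8% of cKO and 38.2% of WT myeloid cells.

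Il2ra was detected in 72.1% of cKO (interval 70.3% to 73.8%) and 68.5% of WT Tregs (interval 66.9% to 70.1%), but without thinning in 80.6% and 83.4%, so its direction turned with depth. The myeloid shares of Il2ra were 18.3% in cKO and 28.4% in WT. The number of UMIs per cell spread most for Il2ra and Il7r. Cells with 3 or more thinned Il2ra UMIs were 35.3% of cKO and 29.1% of WT Tregs, and the variance of the count was 2.94 times its mean in cKO and 2.97 times in WT. For Il7r, cells with 3 or more UMIs were 11.05% of cKO and 22.5% of WT Tregs, and the variance over the mean was 2.40 and 2.74. The other genes had values of 1.27 to 1.62 in cKO and 1.22 to 1.69 in WT, so detected Il2ra and Il7r were less evenly spread over cells than detected Il2rb or Il2rg (1.31 and 1.28 in cKO, 1.41 and 1.30 in WT).

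Some barcodes of the Treg class carried RNA of antigen-presenting cells: 57 in cKO and 88 in WT held at least 10 UMIs of H2-Aa, H2-Ab1 and H2-Eb1. They had medians of 19923 and 24070 UMIs, and 20.2 and 21.6 CPM of Foxp3, against 60.8 and 37.9 CPM in the other Tregs of cKO and WT. Il2rb stood at 250 and 303 CPM in them. They were left out of the comparisons by co-detection, effector or resting order and cycling that follow, by a limit chosen after the data were seen; without them the log2 ratio of Il7r in Tregs was -0.66 and that of Il2ra 0.39.

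Within Tregs, the receptor chains were combined in the same cell about as often as their separate shares imply. All of Il2ra, Il2rb and Il2rg were detected in 52.5% of 2442 cKO Tregs (interval 50.5% to 54.5%) and in 43.4% of 3038 WT Tregs (interval 41.7% to 45.2%). The product of the 3 shares was 50.9% in cKO and 42.1% in WT. None of the 3 was detected in 0.942% of cKO and 1.68% of WT Tregs.

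Il2ra was detected more often in WT Tregs with Il7r than in those without it, while in cKO the intervals overlapped. Among cells with Il7r, 74.1% of cKO (interval 71.2% to 76.8%) and 71.5% of WT Tregs (interval 69.3% to 73.6%) also had Il2ra. Among cells without Il7r, 72.1% of cKO (interval 69.7% to 74.4%) and 62.5% of WT Tregs (interval 59.8% to 65.1%) did. In cKO the Il2ra level was 572 CPM of thinned counts in cells with 0 Il7r UMIs, 582 with 1, 619 with 2 and 714 with 3 or more. In WT it was 396, 503, 576 and 605 CPM. In both libraries Il2ra was highest in the cells with most Il7r, and lowest in those with none. Il15ra, the genomic neighbour of Il2ra, was detected in 7.98% of cKO Tregs with Il2ra (interval 6.76% to 9.33%) and 3.63% of those without it (interval 2.34% to 5.35%), and in 7.15% and 3.76% in WT. Il2rb showed no such order over Il7r UMIs, with 581, 546, 525 and 554 CPM in cKO and 573, 578, 573 and 571 CPM in WT.

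Tregs in which a chain was detected also differed in other genes, with directions shared by both libraries. The genes given were picked, after their values were seen, from the 10 in each direction that ranked highest by the smaller of the log2 ratios of both libraries. With Il2ra came Il1rl1, the IL-33 receptor gene, at 144 CPM in cells with Il2ra and 55.1 CPM in cells without it in cKO, and at 67.9 and 29.8 CPM in WT. Itgae, the CD103 integrin gene, followed (log2 ratio 0.94 in cKO, 0.87 in WT), as did Furin, a protease gene (0.79 and 0.78). S1pr1, a receptor for exit from tissue, was lower in cells with Il2ra (log2 ratio -0.74 in cKO, -0.78 in WT), and so was Slamf6 (-0.53 and -0.67). With Il7r came Calca, the calcitonin gene (0.77 in cKO, 0.92 in WT), Il1rl1 (0.60 and 1.08) and Itgb8, an integrin gene (0.53 and 0.68). H2-Eb1, used above to mark RNA of antigen-presenting cells, was also higher with Il7r (0.62 in cKO, 0.77 in WT). It was thus still detected in the barcodes kept, and the source of this RNA was not tested. Pclaf (-1.26 in cKO, -1.81 in WT), Stmn1 (-1.10 and -1.53) and Mki67 (-0.87 and -1.49) were lower in cells with Il7r. Of the list of 8 division genes used to mark cycling cells, all 8 were lower with Il7r in both libraries, from Cdca8 (-1.19) to Top2a (-0.57) in cKO and from Birc5 (-1.57) to Top2a (-1.06) in WT. Before thinning, cells with Il7r had median depths of 6362 UMIs in cKO and 7678 in WT, against 7260 and 10649 in cells without it; the part of depth in these values was not tested.

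Il2ra and Il7r both climbed along an order of Tregs by effector genes. Tregs were ordered within each library by the summed CPM of 13 effector Treg genes (such as Gzmb, Icos and Batf) and split in 4 groups of equal cell number, Q1 to Q4. Il2ra stood at 332, 589, 734 and 851 CPM from Q1 to Q4 in cKO and at 307, 406, 544 and 759 CPM in WT. Il7r stood at 132, 174, 198 and 262 CPM in cKO and at 173, 288, 391.9 and 465 CPM in WT. From Q1 to Q4 the level of Il2ra was 2.56 times as high in cKO (interval 2.43 to 2.70) and 2.47 times in WT (interval 2.37 to 2.58), and that of Il7r 1.99 times in cKO (interval 1.82 to 2.17) and 2.70 times in WT (interval 2.55 to 2.85).

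Il15ra, at few UMIs, was 1.63 times as high in Q4 as in Q1 in cKO and 3.03 times in WT. The remaining chains climbed less or hardly at all. Il2rb was 1.56 times as high in Q4 as in Q1 in cKO and 1.51 times in WT, Il2rg 1.41 and 1.68 times, and Il4ra 1.33 and 2.01 times. Il21r differed least, at 1.07 times in cKO (interval 0.981 to 1.18) and 1.15 times in WT. Median depth moved with the order, from 6855 UMIs in Q1 to 5827 in Q4 in cKO and from 13694 to 6937 in WT. The division gene Mki67 fell from 131 to 44.3 CPM in cKO and from 174 to 34.1 CPM in WT. Foxp3 rose from 41.3 to 79.5 CPM in cKO and from 23.6 to 56.2 CPM in WT. The parts of depth, division and Foxp3 level in these climbs were not tested. By 8 resting T cell genes (such as Klf2 and S1pr1) the levels of Il7r and Il2ra differed less: Il7r was 1.21 times as high in the highest as in the lowest group in cKO and 1.15 times in WT, and Il2ra 1.19 and 1.14 times. Il21r differed more in the resting order, at 1.22 times in cKO (interval 1.11 to 1.33) and 1.45 times in WT (interval 1.35 to 1.55).

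Set side by side, Il7r was lower in cKO at every step. Its cKO over WT ratio was 0.765 in Q1 (interval 0.707 to 0.826), 0.602 in Q2, 0.506 in Q3 and 0.563 in Q4 (interval 0.526 to 0.603) of the effector order, and between 0.592 and 0.666 in the 4 resting groups. Il2ra was 1.08 times as high in cKO in Q1 (interval 1.03 to 1.14), 1.45 times in Q2, 1.35 times in Q3 and 1.12 times in Q4, so its difference was largest in the middle of the order. Il2rg was higher in cKO in all 4 groups, by 1.35, 1.29, 1.23 and 1.13 times. The groups were cut within each library, so the same step need not hold the same score in both. Gzmb, a gene of the effector list, rose from 600 CPM in Q1 to 11725 CPM in Q4 in cKO, and from 69.1 to 1963 CPM in WT. Its weight in the summed score can thus differ between the libraries, and its part in these ratios was not tested.

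Cycling Tregs, with at least 3 UMIs of 8 division genes, were 320 cKO and 594 WT cells. Il7r stood at 83.5 CPM in cycling and 218 CPM in other cKO Tregs (ratio 0.382, interval 0.346 to 0.421), and at 144 and 389 CPM in WT (ratio 0.369, interval 0.352 to 0.388). Il2rg was also lower in cycling cells, at 0.646 of the level of other Tregs in cKO and 0.645 in WT. Il2ra was at 0.875 in cKO and 0.662 in WT. Cycling cells were deeper (medians of 16063 and 19989 UMIs, against 6035 and 7532 in other Tregs of cKO and WT). Il7r was lower in cKO both among cycling cells (83.5 and 144 CPM, ratio 0.581) and among the others (218 and 389 CPM, ratio 0.562). Il2ra was higher in cKO in both, but more so among cycling cells (540 and 347 CPM, ratio 1.56, interval 1.49 to 1.63). Among the others it had 617 and 523 CPM (ratio 1.18, interval 1.15 to 1.21).

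**Figure D2:**
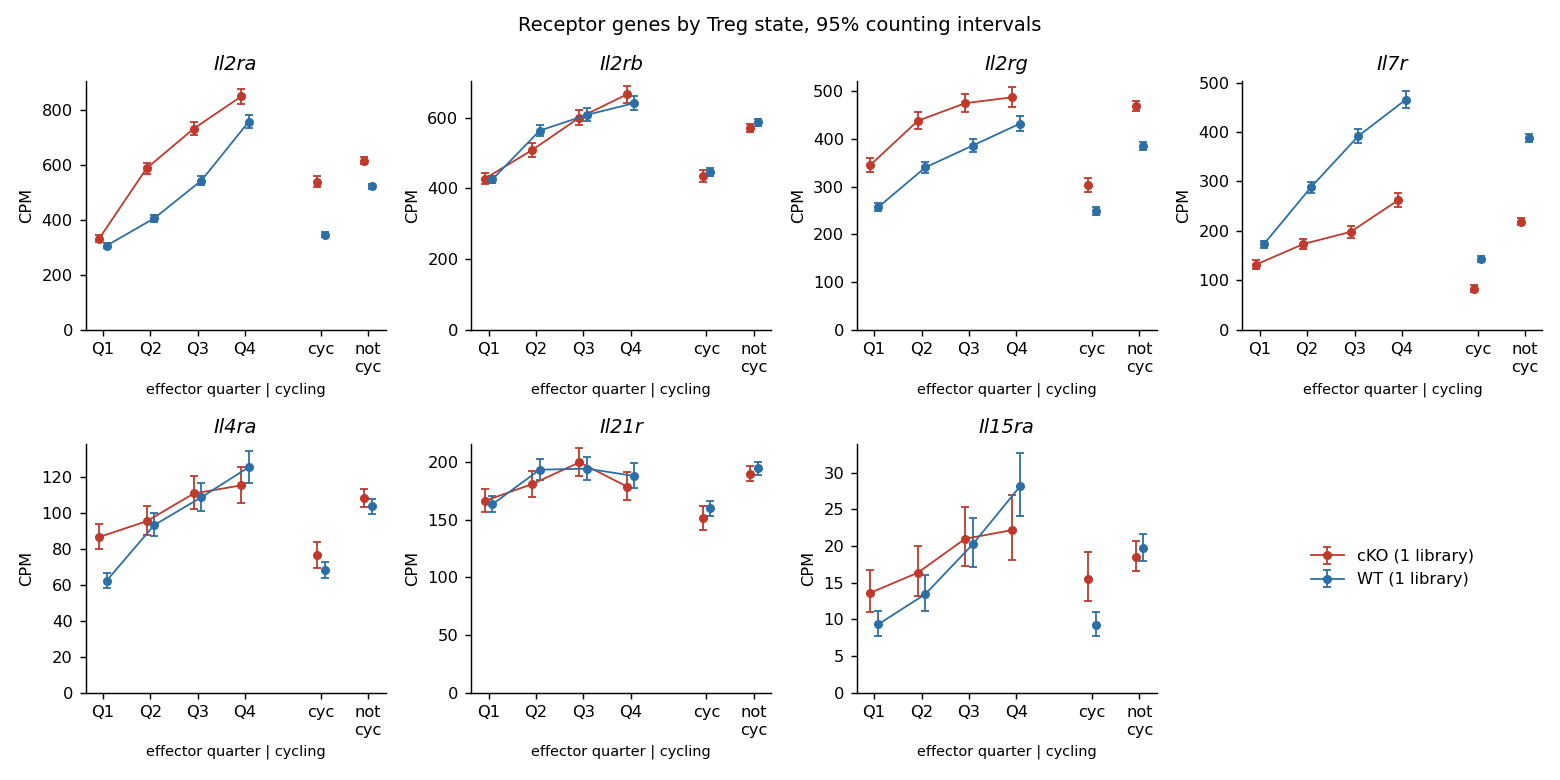
Level of each receptor gene in CPM (vertical axis, linear) in Tregs ordered by effector genes from lowest (Q1) to highest (Q4), and in cycling (cyc) and other (not cyc) Tregs, for cKO in red and WT in blue. Points are 1 library each with exact Poisson 95% intervals. Il2ra and Il7r climb from Q1 to Q4 in both libraries while Il21r stays nearly level, and the WT points of Il7r lie above the cKO points at every step.

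The Treg class also held clusters of unequal share in the 2 libraries: the largest had 1633 cKO and 53 WT cells, and the next 151 cKO and 1291 WT cells. Of 10 clusters, 8 had at least 20 cells of each library. Il7r was lower in cKO in 8 of these 8 (log2 ratio -1.81 to -0.19). Il2rg was higher in 7 of 8 (-0.09 to 0.57), and Il2rb was lower in 7 of 8 (-0.38 to 0.04). Il2ra was higher in 4 and lower in 4 (-0.96 to 0.75). The clusters were then weighted alike in both libraries, each by the mean of its shares of cKO and WT Tregs. In the largest cluster Il2ra had 735 CPM in cKO and 905 CPM in the 53 WT cells. So weighted, the log2 ratio of Il2ra was -0.16, that of Il2rb -0.17, that of Il4ra -0.18, that of Il2rg 0.16 and that of Il7r -0.88. The direction of Il2ra and Il4ra in Tregs thus turned when clusters were weighted alike in both libraries, while that of Il2rg and Il7r did not. The receptor genes themselves were left out of the clustering, which took the cells of both libraries together.

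**Figure D3:**
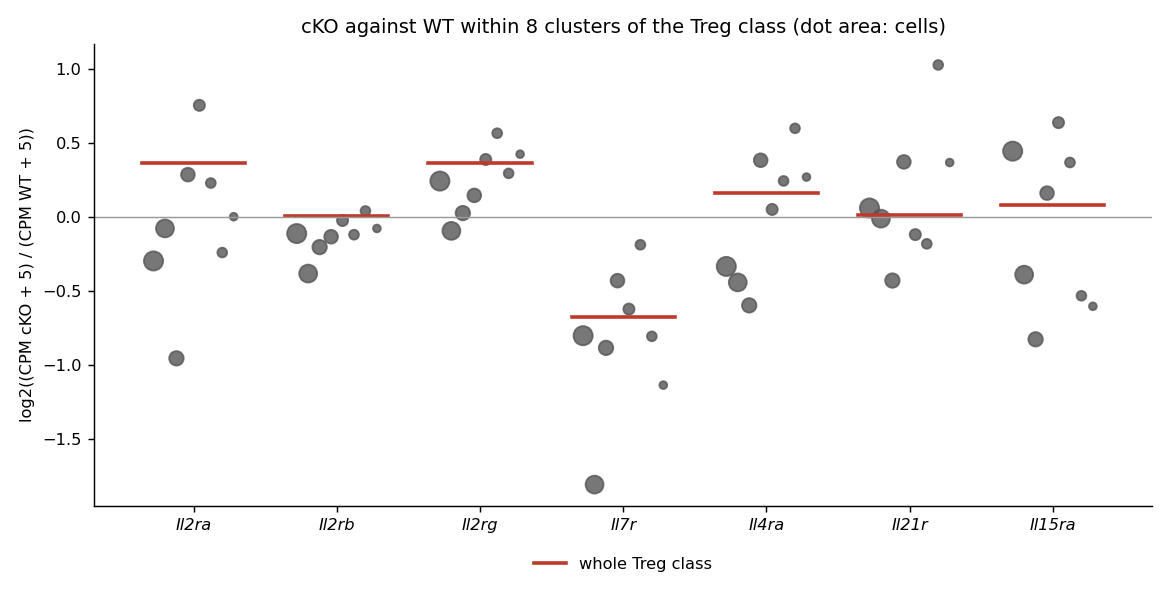
Log2 ratio of cKO to WT (vertical axis, on the CPM + 5 scale) of each receptor gene within the 8 Treg clusters with at least 20 cells of each library; each dot is a cluster, its area grows with its cells, and the red line is the whole Treg class. All 8 dots of Il7r lie below 0, between -1.81 and -0.19, while those of Il2ra lie on both sides.

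Of 14 signal transducers of the family, 12 reached a mean of 5 CPM. Past 1.5-fold, 0 were higher and 1 lower in cKO Tregs, where 4.26% and 4.1% of all genes tested were, and the median log2 ratio was 0.05. Irs2, an adaptor used by the IL-4 receptor, was the lower one, at 34.2 CPM in cKO and 62.5 CPM in WT Tregs (log2 ratio -0.79). Stat5a, a main mediator of IL-2 signals, stood at 117 CPM in cKO and 84.2 CPM in WT (0.45). Ptpn2, a phosphatase that restrains JAK signals, stood at 78.6 and 62.6 CPM (0.30), and Stat3, used by the IL-21 and IL-6 receptors, at 494 and 601 CPM (-0.28).

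Of 14 genes known to respond to these receptors, 13 reached 5 CPM. Past 1.5-fold, 7 of the 13 were higher in cKO Tregs and 0 lower, where 4.26% and 4.1% of all genes tested were, and their median log2 ratio was 0.62. This list, like the other gene lists here, was chosen with earlier results of these data known, so its counts are a description only. Socs3, a feedback inhibitor best known downstream of STAT3, had 222 CPM in cKO and 57.1 CPM in WT (log2 ratio 1.87). Pim1, a survival kinase gene, had 1745 CPM in cKO and 647 CPM in WT (1.42). Socs1, a feedback inhibitor of JAKs, had 189 and 92.9 CPM (0.99), and Osm, a cytokine gene, 26.0 and 11.6 CPM (0.90). Cish, another feedback inhibitor, had 324 and 209 CPM (0.62). Bcl2, a survival gene, was below WT, at 13.7 and 20.5 CPM (-0.45). Many other cytokines also act on these genes.

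Within each library, Cish and Pim1 stood higher in Tregs with Il2ra than in those without it. Cish had 377 CPM with Il2ra and 274 CPM without it in cKO (ratio 1.38), and 266 and 195 CPM in WT (ratio 1.36). Pim1 was at a ratio of 1.34 in both libraries. Socs3 had ratios of 1.004 in cKO (interval 0.920 to 1.10) and 0.916 in WT (interval 0.792 to 1.06) with Il2ra, and of 1.30 and 1.45 with Il7r.

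Receptors of other cytokine families formed a further list. Of 19 listed genes 18 reached 5 CPM. Past 1.5-fold, 7 were higher and 1 lower in cKO Tregs, where 4.26% and 4.1% of all genes tested were, and their median log2 ratio was 0.50. These counts too are a description only, as the list was chosen with earlier results of these data known. Il1rl1 had 114 CPM in cKO and 46.7 CPM in WT Tregs (log2 ratio 1.20), Il12rb2, an IL-12 receptor chain gene, 36.6 and 15.7 CPM (1.01), and Il6st, the shared IL-6 family chain gene, 31.0 and 13.3 CPM (0.98). Il6ra, the IL-6 binding chain gene, had 11.2 CPM in cKO and 4.48 CPM in WT (0.77). Il18rap, an IL-18 receptor chain gene, was lower, at 23.4 and 40.0 CPM (-0.67). Of 3 other chains of the gamma chain family, Crlf2 alone reached 5 CPM, with 329 CPM in cKO and 261 CPM in WT (0.33), so the partner of Il7r in the TSLP receptor stood above WT while Il7r stood below it. Il9r had 1.66 and 3.27 CPM (39 and 124 UMIs) and Il13ra1 1.19 and 1.24 CPM.

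**Figure D4:**
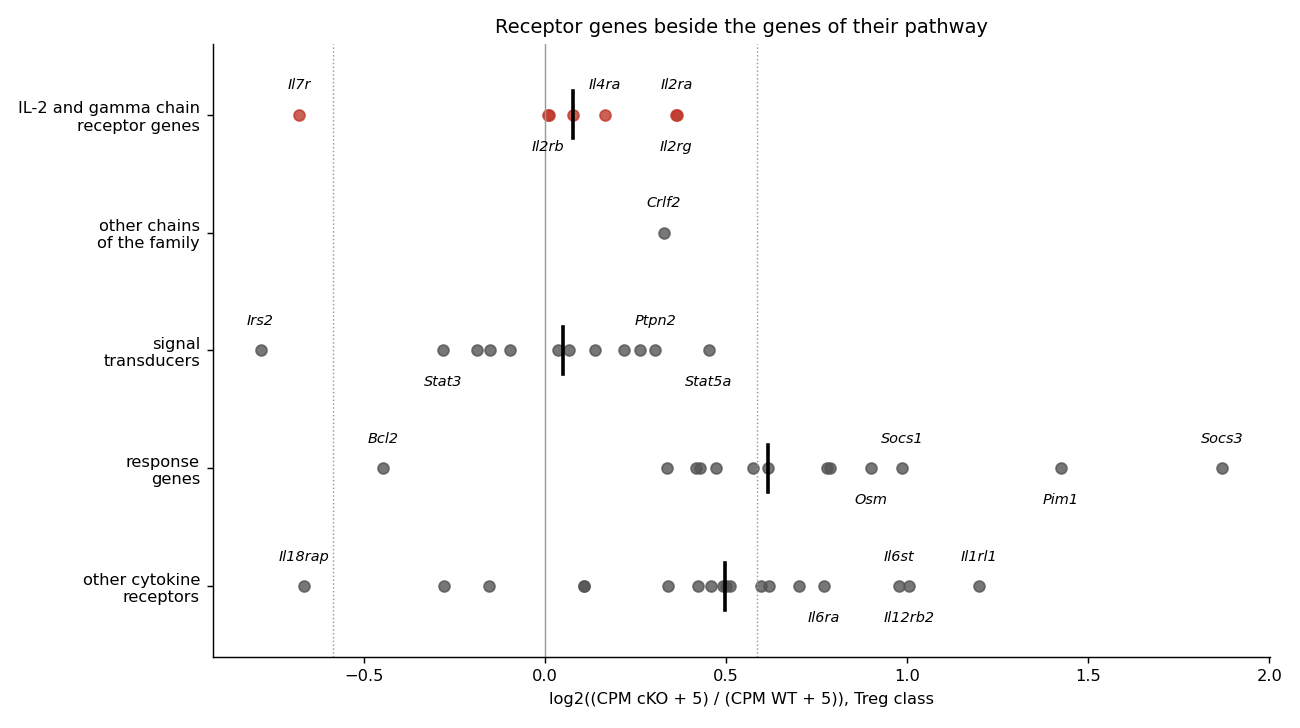
Log2 ratio of cKO to WT in Tregs (horizontal axis, on the CPM + 5 scale) of the 7 receptor genes (red) and of the genes of 4 related lists that reached a mean of 5 CPM (grey); bars are list medians and dotted lines mark 1.5-fold. The response genes and the other cytokine receptors lie mostly to the right (medians 0.62 and 0.50), the signal transducers around 0 (median 0.05), and Il7r alone of the receptor genes lies past the left dotted line.

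The ligands were scarcely seen in Tregs: none of the 8 reached 5 CPM. Il2 had 4.05 CPM in cKO and 3.87 CPM in WT (95 and 147 UMIs), Il13 2.98 and 4.74 CPM, Il4 1.07 and 0.659 CPM, and Il15 0.937 and 1.05 CPM. Il7 had 0 UMIs in cKO and 11 in WT, Il9 0 and 1, Tslp 0 and 5, and Il21 3 and 0. Myeloid cells held Il15 at 16.03 CPM in cKO and 5.603 CPM in WT (76 and 13 UMIs, ratio 2.86, interval 1.58 to 5.62).

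Across whole cell classes, which carry some RNA of other classes, each chain had its own order. Il2ra was highest in Tregs and lowest in cKO NK cells (29.5 CPM, 14 UMIs), but the myeloid barcodes without T cell markers described further on were lower still, at 6.43 CPM in cKO and 8.54 CPM in WT. Il2rb was highest in cKO NK cells, at 1016 CPM (interval 928 to 1111), and lowest in myeloid cells (102 CPM in cKO, 134 CPM in WT). Il2rg was highest in Tregs, with cKO CD8 T cells, cKO NK cells and WT CD8 T cells next (299, 290 and 260 CPM) and with overlapping intervals between neighbours. Il7r was highest in WT Tregs (296 CPM, interval 290 to 301) and lowest in cKO NK cells (18.9 CPM, 9 UMIs). In cKO Tregs it had 183 CPM, with an interval that overlapped those of WT CD8 T cells (189 CPM) and WT myeloid cells (163 CPM). Il4ra was highest in myeloid cells, at 159 CPM in cKO and 139 CPM in WT with overlapping intervals. Il21r was highest in CD8 T cells (216 CPM in cKO, 191 CPM in WT), with WT CD8 T cells overlapping cKO Tregs, and Il15ra stayed between 4.21 and 21.4 CPM with neighbours that overlap throughout.

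The CD8 T and myeloid classes were not free of Treg RNA, and WT held more of it. In CD8 T cells Foxp3 stood at 24.6% of the Treg level in cKO and 41.1% in WT, Ikzf2 at 29.8% and 55.6%, and Ctla4 at 27.6% and 50.05%. The summed level of 6 dendritic cell markers in the CD8 T class was 41.3 CPM in cKO, where Xcr1 was at 0, and 162.5 CPM in WT. In myeloid cells the Treg genes were at 9.69%, 14.1% and 12.8% in cKO and at 23.3%, 17.9% and 27.2% in WT. Median depth was 10648 UMIs in cKO and 18131 in WT CD8 T cells, and 13633 and 20622 in myeloid cells. In such sums fewer cells of a type and less RNA per cell cannot be told apart, and the part of Treg and dendritic cell RNA in the values that follow was not tested.

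In the whole classes, 3 of the 7 genes were past 1.5-fold lower in cKO CD8 T cells, where 8.35% of 8739 genes tested were, and 0 were higher, where 3.35% were. Il2ra had 188 CPM in cKO and 310 CPM in WT (log2 ratio -0.70), Il4ra 63.4 and 102 CPM (-0.65), and Il7r 122 and 189 CPM (-0.61). Il2rb had 500 and 660 CPM (-0.40). Without the deepest 20% of CD8 T cells, Il7r and Il4ra were no longer past 1.5-fold (-0.50 and -0.53), while Il2ra was (-0.73). In myeloid cells 2 were past 1.5-fold lower, where 5.35% of 8580 genes tested were, and 0 were higher, where 4.29% were. Il7r had 79.5 CPM in cKO and 163 CPM in WT (-0.99), and Il2ra 104 and 185 CPM (-0.81).

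The values outside Tregs were taken again in barcodes without Treg or T cell markers, by limits chosen after the data were seen; the direction of Il2ra turned in the CD8 T class and not in the myeloid class. Without barcodes that held at least 5 UMIs of Foxp3, Ikzf2 and Ctla4, the CD8 T class kept 201 cKO and 29 WT cells. Il2ra then had 41.8 CPM in cKO (78 UMIs) and 5.22 CPM in WT (2 UMIs), a ratio of 8.01 with an interval of 2.14 to 67.3, and Il2rb had 414 and 138 CPM (ratio 2.996, interval 2.27 to 4.04). Il7r stayed lower in cKO, at 107 and 282 CPM (ratio 0.378, interval 0.298 to 0.483), and so did Il4ra, at 65.9 and 170 CPM (ratio 0.389). The 201 cKO barcodes held 1174 CPM of Cd3d and 778 CPM of Trac, against 308 and 159 CPM in the 29 WT barcodes, so these sets do not compare like T cells, and the part of this difference in the ratios was not tested.

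Without barcodes that held a UMI of Cd3e, Cd3g, Cd3d or Trac, the myeloid class kept 168 cKO and 32 WT cells. Il7r then had 70.7 CPM in cKO and 53.0 CPM in WT (ratio 1.34, interval 0.903 to 2.03), so the lower value of the whole class was not seen. Il2ra then had 6.43 CPM in cKO and 8.54 CPM in WT (14 and 5 UMIs, ratio 0.753, interval 0.256 to 2.67), and Il2rb had 11.5 and 5.13 CPM (25 and 3 UMIs, ratio 2.24, interval 0.684 to 11.6). Il4ra, at 186 and 150 CPM, and Il2rg, at 159 and 114 CPM, were kept, so these were detected in myeloid barcodes with no T cell marker UMI. Some intervals in this set excluded equality. Il21r was lower in cKO (134 and 61 UMIs, ratio 0.591, interval 0.433 to 0.813, log2 ratio -0.71). Il2rg was higher (ratio 1.39, interval 1.07 to 1.83), and so was Il15ra at few UMIs (39 and 3, ratio 3.49, interval 1.11 to 17.7).

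**Figure D5:**
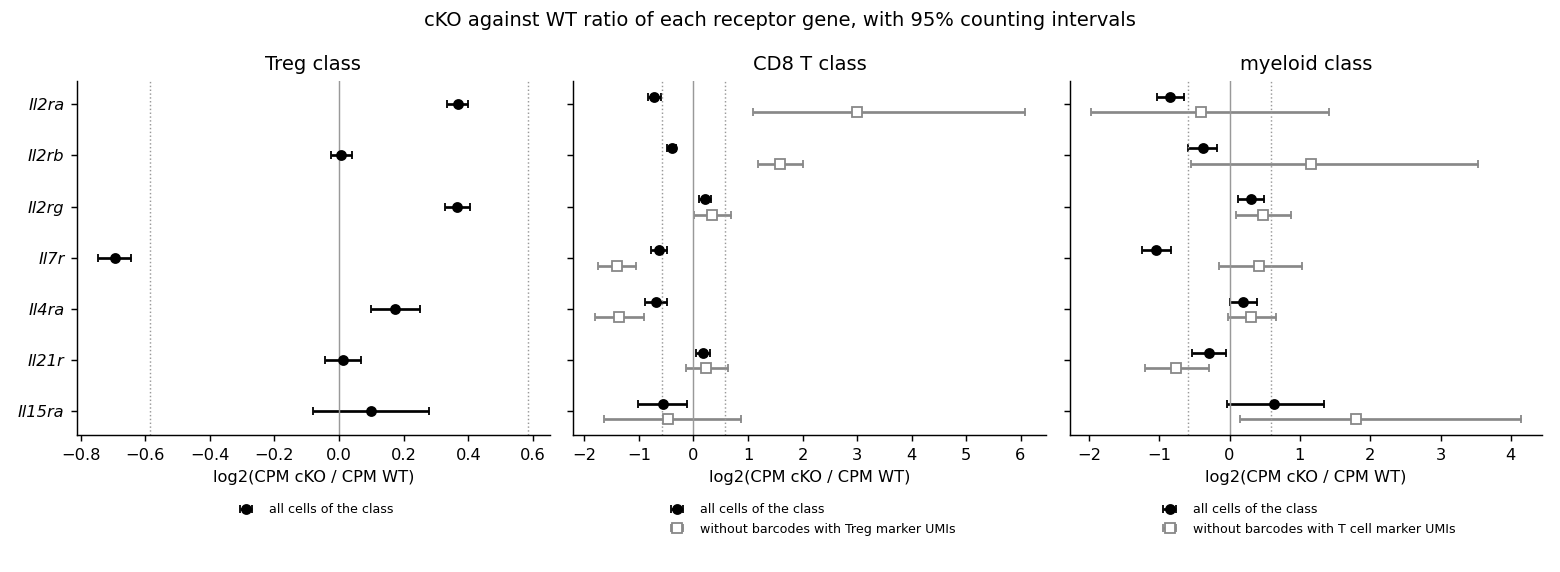
Log2 of the plain CPM ratio of cKO to WT (horizontal axes, with different ranges) for each receptor gene in the Treg, CD8 T and myeloid classes. Filled circles are all cells of a class and open squares the cells without Treg markers (CD8 T) or T cell markers (myeloid); whiskers are exact 95% counting intervals and dotted lines mark 1.5-fold. In the CD8 T class the Il2ra square lies right of 0 and its circle left of it, while both symbols of Il7r lie left.

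The genes most like each chain were sought over 7 sums (the Treg, CD8 T and myeloid classes of both libraries and the cKO NK class), among the 5085 genes that averaged 20 CPM or more. Pearson's r of log2(CPM + 5) was highest for Mul1, Rb1cc1 and Wnk1 with Il2ra (0.999, 0.994 and 0.994). Pmpcb and Uhmk1 were among the 3 highest with Il7r (0.995 and 0.991). It was highest for Fbxl12, Immp1l and Plekha5 with Il2rb (0.998, 0.995 and 0.986), and for Spcs2, Plaat3 and Swt1 with Il2rg (0.991, 0.990 and 0.986). Dctn1, Syngr2 and Anxa4 led for Il4ra (0.983, 0.980 and 0.978), Sf3a1, Nfrkb and Klk8 for Il21r (0.993, 0.992 and 0.987), and Baz2a, Dpp3 and Cox17 for Il15ra (0.992, 0.988 and 0.982). The points share libraries and depth, and with 7 points and so many genes such values are a description only. Among the chains themselves Il2ra and Il7r were most alike (0.944), and Il2rb and Il4ra most unlike (-0.846).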

How the data were processed

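The deposited matrices give unnormalized UMI counts for each gene in each barcode. The authors obtained these counts with Cell Ranger 5.0.1 on build mm10, per the submitters' processing notes. The sources used here do not give the handling of intron reads, the annotation release or any doublet removal. No doublet caller was run. The 7 genes and all gene lists were chosen with earlier results of these data known.

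Barcodes with at least 500 genes and under 10% mitochondrial UMIs were kept. Treg cells had at least 1 UMI of Cd3e and Cd3g, at least 5 of Foxp3, Ikzf2 and Ctla4, at most 1 of Cd8a and Cd8b1 and at most 2 of Lyz2 and C1qa. CD8 T cells had at least 3 UMIs of Cd8a and Cd8b1, NK cells at least 2 of Ncr1 and Klrb1c and 0 of Cd3e, and myeloid cells at least 10 of Lyz2 and C1qa. In all class rules a limit on several genes applies to their summed UMIs. Class sums of UMIs were scaled to CPM, each with a Poisson 95% interval (exact). The interval of a ratio is conditional binomial (exact) and leaves out the pseudocount of 5 CPM; shares have exact Clopper-Pearson intervals after thinning to 4000 UMIs. Intervals and limits for a count of 0 (3 counts) cover counting error only. With 1 library per group there is no test, and the call rule is a fold of 1.5 at a mean of at least 5 CPM.

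The genes named are the 7, the 4 with the largest absolute log2 ratio in Tregs of each pathway list, all ligands, and the 3 most like each chain, of which 1 for Il7r is not reported here; Cish, Bcl2, Il18rap, Il9r, Il13ra1, Gm20489, Gm37881, Gm44876, the genes beside detection of a chain and those of marker checks were named after their values were seen. Coordinates are from GENCODE M21 (32158 of 32285 identifiers matched) and promoters from RefSeq. Clusters were made with scanpy 1.11.5 and leidenalg 0.10.2 (resolution 0.6, 30 components, 15 neighbours, 2000 genes); the rest used Python 3.11.15, numpy 2.4.6 and scipy 1.17.1. The ratio calculation was checked on simulated counts. Alternatives covered the barcode filter, the Treg rule, scaling, thinning, pseudocount, composition and deep, cycling, globin-carrying or mixed barcodes.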

Additional observations from a re-analysis of the deposited data

Results flagged for a closer look

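Il2ra stood higher in cKO than in WT Tregs (log2 ratio 0.3643) and lower in cKO than in WT CD8 T cells (-0.7038) and myeloid cells (-0.8102), so its direction differed between classes. Il4ra was likewise higher in cKO Tregs (0.1649) and lower in cKO CD8 T cells (-0.6489). Some of these directions turned. With Treg clusters weighted alike in both libraries, the Treg log2 ratios were -0.16 for Il2ra and -0.18 for Il4ra. Without barcodes that held Treg markers, that of Il2ra in CD8 T cells was 2.20. With 1 library per group, neither difference between classes was tested across animals. Treg marker RNA in these classes was at a higher share of the Treg level in WT than in cKO, and its part in the values was not tested; the values of Il2ra without the marked barcodes are given with the class results.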

How the results depend on the processing

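In Tregs 16 alternatives were run for each chain. The log2 ratio of Il7r ranged over -0.88 to -0.64 and stayed past 1.5-fold lower in 16 of 16. That of Il2rg ranged over 0.16 to 0.37 with the same sign in 16. That of Il2ra ranged over -0.16 to 0.40 with the same sign in 15, the exception being clusters weighted alike in both libraries. Il4ra kept its sign in 15 (-0.18 to 0.18), Il15ra in 14 (-0.12 to 0.14), Il21r in 11 (-0.06 to 0.04) and Il2rb in 10 (-0.17 to 0.02). A median-ratio size factor shifted log2 ratios without a pseudocount by 0.05, and that of Il15ra moved to 0.04 and that of Il7r to -0.73. Outside Tregs, leaving out barcodes with Treg markers turned Il2ra in CD8 T cells to 2.1951, and leaving out those with T cell markers turned Il7r in myeloid cells to 0.3858; both limits were chosen after the data were seen, and the cause was not tested. No paired analysis was possible because each group has 1 library. Depth limits Il15ra, the ligands, the 34 NK cells and the reduced CD8 T and myeloid classes most. Genotype, sex-linked transcripts and library cannot be told apart.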
